A study of Arabidopsis thaliana with 4 samples.

Results

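The 300 widest genomic stretches that all 3 FHY1 ChIP replicates marked in Arabidopsis thaliana seedlings are described here, with the genes they hold or flank. A stretch is a run of bases covered at once by a peak of replicate 1, a peak of replicate 2 and a peak of replicate 3. There were 6687 such stretches, and the 300 with the most bases were kept (called wide stretches), which leaves 6387 other stretches. The choice used the deposited peak coordinates, so width itself is given as a description and no test was made on it. Seedlings 4 days old and etiolated, that is dark-grown, received far-red light for 3 h before chromatin was immunoprecipitated in 3 replicates, and 1 input sample was not analysed here. All carried GFP-FHY1 driven by 35S, a promoter active in most plant cells, in the fhy1-1 mutant background. The sample labels name an antibody against GFP, and the series' design text names one against FHY1. There was no dark, white-light or untransformed group, so nothing below compares light conditions or genotypes, and nothing states that the replicates came from separate sowings.

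FHY1 is a small plant protein that binds the light-activated form of the photoreceptor phytochrome A and carries it into the nucleus, where far-red light starts the change of a dark-grown seedling towards photomorphogenesis. It has no known DNA-binding domain of its own, and it is known to reach chromatin with phytochrome A and with transcription factors that bind promoters. FHL is its homologue and shares the import task. In chromatin immunoprecipitation followed by sequencing, DNA bound by the tagged protein is enriched, and a peak caller outlines each enriched interval. A wide interval may hold 1 broad signal or several neighbouring ones, and in a compact genome such as that of Arabidopsis it can reach into more than 1 gene.

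The replicates differed in how much was called. The deposited lists held 8423, 28170 and 19150 peaks for replicates 1, 2 and 3, with a median width of 957, 689 and 859 bp. Tags counted inside peaks summed to 4541953, 12651543 and 10390173. The depth of the whole libraries is unknown, because tags outside peaks were not in the lists. A separate list for the whole series held 3419 regions with a peak height in each of 3 samples, whose names were not matched to replicate numbers. Coordinates are given in TAIR10, the build of the submitters' processing notes, and gene names come from the RefSeq annotation of TAIR10.1, without its strand or exons. It is therefore not stated below whether a stretch covers the start or the end of a gene.

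The wide stretches ran over 1375 to 3566 bp, with a median of 1583 bp and quartiles of 1458 and 1803 bp, against a median of 686 bp in the other stretches. They held 500842 bases, 10.3% of all bases marked by the 3 replicates together. Chromosomes 1 to 5 carried 100, 35, 56, 34 and 75 of them. As shares these were 33.3%, 11.7%, 18.7%, 11.3% and 25%, against 27.1%, 15.1%, 20.4%, 15.4% and 22.1% of all stretches. Width fell away without a step at the limit. The last 5 members had 1377, 1377, 1377, 1376 and 1375 bp and lay at AT3G09440, at AT3G10020, at RCE1 with GGPS1, at NMT1 with LUT2, and at AT2G45590. The next 5 stretches outside had 1375, 1374, 1374, 1373 and 1373 bp and lay at XTH9, AT4G17760, RGLG2, AT5G03560 with IREG2, and CPR5 with ATH13.

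**Figure D1:**
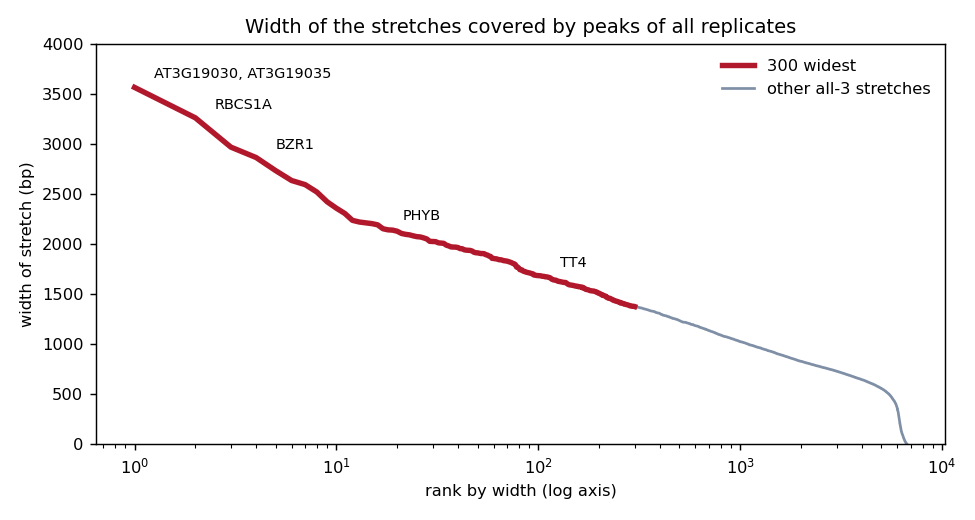
Width in bp of the all-3 stretches (vertical axis) against their rank by width (log axis), with the 300 widest in red, the other stretches in grey and 5 stretches named by their genes. Width drops steeply over the first ranks from 3566 bp and passes the limit of 1375 bp without a gap.

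The 2 widest stretches each contained entire genes. Rank 1, of 3566 bp at chr3:6562574-6566139, held AT3G19030 and AT3G19035 together with the transcribed pseudogene AT3G19025. Its peaks spanned 3651, 4184 and 4183 bp in replicates 1, 2 and 3, and the authors' fold enrichment was 3.58, 4.60 and 3.72, below the median of wide stretches in replicates 1, 2 and 3. Rank 2, of 3262 bp at chr1:25047152-25050413, covered the whole of RBCS1A, which encodes a small subunit of Rubisco, the carbon-fixing enzyme of photosynthesis. The RBCS1A peaks were 3427, 3649 and 3411 bp wide, so the 3 replicates drew nearly the same outline. Their fold enrichment was 3.89, 4.05 and 8.0, with replicate 3 apart from the other two.

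The ranks that follow held signalling genes and genes of stress responses. Rank 3, of 2969 bp at chr2:12814980-12817948, covered 66.1% of AT2G30020, which encodes the protein phosphatase AP2C1. Rank 4, of 2865 bp at chr1:28183196-28186060, reached 21.7% into BZR1, the transcription factor that carries the brassinosteroid signal, and also touched AT1G75060 and the tRNA gene AT1G75070. The 3 replicates outlined the BZR1 stretch alike, with peaks of 2962, 2866 and 3031 bp and folds of 4.03, 5.72 and 5.06. Rank 5 (2734 bp) reached into GSTU18 and held all of its neighbour ERD9, and both encode glutathione transferases of the tau class. There the replicates differed, with peaks of 3050, 4391 and 6777 bp. Reads that match both of these related neighbours could be counted in either gene, and how such reads were handled is not given in the sources used here.

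Rank 6 (2635 bp) lay across LRB1, a subunit of ubiquitin ligases that act on phytochrome B, and GBF3, a bZIP factor that binds G-boxes. Rank 17 (2153 bp) lay across AT2G18780 and 6.82% of PHYB, the red-light photoreceptor. Rank 20 (2128 bp) lay across AT3G59070 and PIL6, better known as PIF5, a bHLH factor that phytochromes mark for destruction in light. PHYB and PIL6 were the 2 genes of the phytochrome and far-red list among the 20 widest. The rest of the 20 held ERD15 (a small dehydration-induced protein, whole gene), FLA9 (an arabinogalactan protein of the cell wall), ACHT5 (a thioredoxin of the plastid) and TCP9 (a transcription factor, 60.6% of the gene). Loci without a symbol there were AT2G20562, AT5G60390 with AT5G60400, AT4G27270 with AT4G27280, AT5G08139, AT1G05575 with AT1G05577, and AT3G51950. Ranks 12 and 14 held no coding gene. Rank 12 had ACR8 and ARK3 as its neighbours and rank 14 had ABCG25 and AT1G71970. Of these 20 stretches, 9 overlapped 2 or more coding genes, 7 held an entire one and 15 met the authors' series list.

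**Figure D2:**
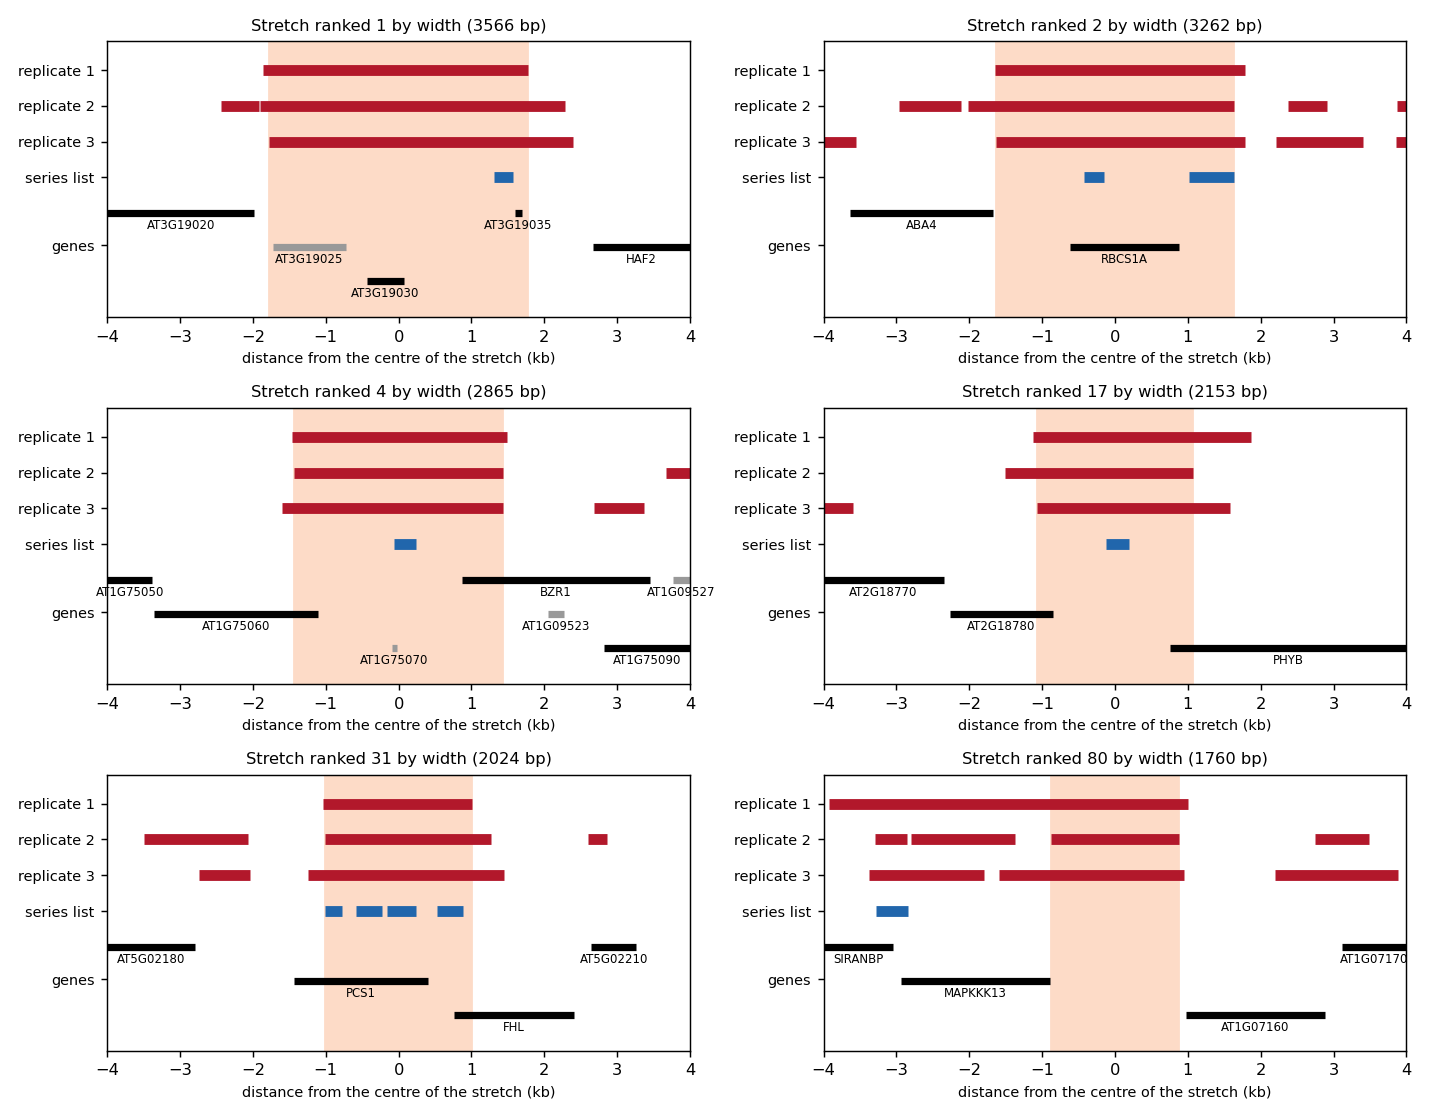
Maps of the stretches of rank 1, 2, 4, 17, 31 and 80 (shaded) with the peaks of each replicate in red, the authors' series-list regions in blue, coding genes in black and other genes in grey, against distance in kb from the centre. Genes lie wholly inside (ranks 1 and 2), enter from both sides (ranks 4, 17 and 31) or stop at the edges (rank 80, 1760 bp), and the FHL stretch of rank 31 meets 4 series regions.

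Most wide stretches had their middle between genes and reached into a neighbour. A longer stretch has more bases that can meet a gene, so values per kb are given beside the counts. Their midpoint was outside every coding gene in 222 of 300 (74%, Wilson 95% interval 68.8 to 78.6), against 3894 of 6387 other stretches (61.0%, interval 59.8 to 62.2), with 61.6% over all stretches. For the 300 widest stretches chosen without replicate 1, 2 or 3 the share was 75.3%, 58.7% and 65.7%. Counting any shared base, 35 wide stretches touched no coding gene, 134 touched 1, 120 touched 2 and 11 touched 3. At least 2 coding genes were therefore touched by 131 of 300 (43.7%, interval 38.2 to 49.3), against 1274 of 6387 other stretches (19.9%, interval 19.0 to 20.9), with 21% over all. The mean was 1.36 coding genes per wide stretch and 0.937 per other stretch. Per kb of stretch the values were 0.813 coding genes in wide stretches and 1.37 in other stretches. A gene counts from 1 shared base, so short stretches gain more contacts per kb at their edges. Values per kb thus tend to fall with width by construction and are not a full correction for length. The same holds for the values per kb of other genes and of series regions below. All intervals cover counting error only.

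These contacts were mostly partial. When a gene counted only with at least 50% of its length in the stretch, the mean was 0.227 genes per wide stretch, and 2.67% of wide stretches held 2 or more. Among the 380 cases in which a stretch covered part of a gene, the median covered share was 17.4% of the gene, and in 244 cases (64.2%) it was under 25%. An entire coding gene lay inside 25 of 300 wide stretches (8.33%), against 51 of 6387 other stretches (0.798%), with 1.14% over all. The 27 entire genes were short, with a median length of 792 bp, against 2428 bp for the 376 genes covered in part and 2078 bp for all coding genes. Only 5 wide stretches (1.67%) lay inside a single coding gene, against 11.8% of other stretches. By bases, 42.4% of the wide stretches was in coding genes, 4.30% in other annotated genes alone and 53.3% in no gene, against 46.6%, 2.96% and 50.5% in other stretches.

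**Figure D3:**
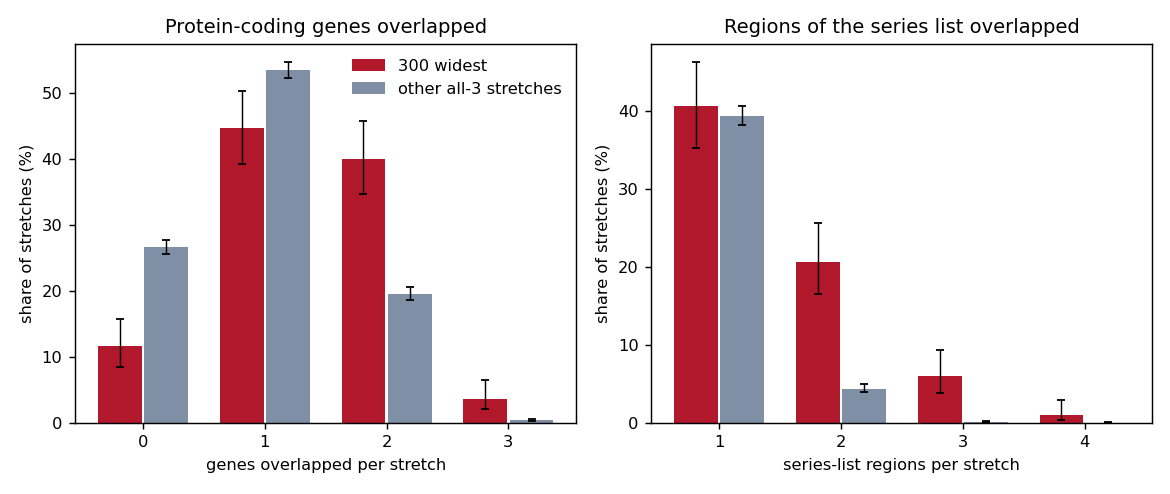
Share in percent of stretches that overlap each number of coding genes (left) or of series-list regions (right), the 300 widest in red beside other all-3 stretches in grey, with Wilson 95% intervals (counting error only). The wide stretches have more at 2 genes (40% against 19.6%) and at 2 series regions (20.7% against 4.40%), and fewer at 0 genes (11.7% against 26.6%).

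The 11 stretches with most genes touched 3 each. Rank 33 (2010 bp) covered 82.7% of DREB19, a factor of the drought-response family, all of AT2G38350 and 18.1% of PRA1.B4, a protein of membrane traffic. Its folds were 5.46, 5.08 and 4.34 in replicates 1, 2 and 3. Rank 55 (1893 bp) held the very short loci AT3G61826 (93 bp) and AT3G61829 (132 bp) whole and 10.6% of ARF18, an auxin response factor, with folds of 4.49, 4.51 and 4.01. Rank 102 (1682 bp) lay across AT1G31910, AT1G31920 and XLG3, an extra-large G protein subunit. It had folds of 8.5, 5.13 and 6.08, and the stretch filled 91.7% of the joint outline of its 3 peaks. Ranks 121 and 131 each touched 3 coding genes and a spliceosomal U4 RNA gene. Rank 121 lay at AT5G49555, AT5G49560 and PNG1, a peptide N-glycanase, with U4.3p. Rank 131 lay at AT3G06890, AT3G06895 and ULP1A, a protease of the SUMO pathway, with U4.2. Rank 142 lay at AT2G36130, AT2G36145 and AT2G36160 and also held 2 tRNA genes. The others were at GTE2 with AT5G10540 and AT5G10560 (rank 83), at AT3G15630, AT3G15635 and AT3G15640 (rank 163), at AT4G17243, AT4G17245 and AT4G17250 (rank 237), at GER1 with AT1G72600 and AT1G72620 (rank 239), and at GSTU5, AT2G29452 and GSTU4 (rank 274). GTE2 is a bromodomain protein and GER1 a germin-like protein.

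Of the 35 wide stretches that touched no coding gene, 13 held a noncoding gene and 22 no annotated gene. The nearest coding gene lay at a median distance of 622 bp (range 4 to 3047 bp), and within 1000 bp in 25 of them. Rank 80 filled the gap between MAPKKK13, 9 bp to 1 side, and AT1G07160, 88 bp to the other. MAPKKK13 is a kinase at the head of a MAP kinase cascade.

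The wide stretches overlapped 403 of the 27444 nuclear coding genes (1.47%), and 537 (1.96%) were overlapped or within 1000 bp. Among the 430 genes of 14 lists of light, hormone, photosynthesis, stress and contrast genes, 22 were overlapped or within 1000 bp (5.12%) and 19 were overlapped. The 14 lists cover well-studied genes, and 198 of the 403 genes (49.1%) carried a symbol, against 37.8% of all coding genes. The counts by list below are descriptions of the listed genes only, and no list was tested. Folds given with a gene are those of the peaks at its stretch, which may hold other genes.

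The phytochrome and far-red list had 5 of its 53 genes overlapped: PHYB, FHL, PIL6, CRY2 and ELIP1. FHL, the homologue of FHY1, shared rank 31 (2024 bp, chr5:435599-437622) with PCS1, an aspartic protease gene. The stretch covered 15.6% of FHL and 76.7% of PCS1. The FHL peaks were 2046, 2275 and 2682 bp wide in replicates 1, 2 and 3, and their summits fell within 7 bp of each other. They held 1143, 1593 and 1668 tags, at folds of 5.45, 5.39 and 8.21. It met 4 regions of the series list, a number reached by only 3 of the 300 stretches (with ranks 116 and 175), and the highest of them had a height of 251 ± 46.6 (SD over the 3 samples of that list). Enrichment at FHL was thus above the wide-stretch median of each replicate.

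The PHYB peaks were 2995, 2591 and 2658 bp wide and held 1875, 2144 and 2176 tags. Folds at PHYB were 7.19, 5.83 and 6.61, also above the wide-stretch median in each replicate, and the 3 summits fell within 36 bp. PIL6 had folds of 6.42, 4.18 and 4.77 over peaks of 2509, 2128 and 2300 bp, and its summits also fell within 36 bp. At PIL6 replicate 1 was high, and replicate 2 was below the median of wide stretches. CRY2, a blue-light receptor, was covered over 20.4% of its length by rank 235 (1438 bp), with folds of 3.90, 5.60 and 4.27. ELIP1, an early light-induced protein of the chloroplast, was at rank 182 (1533 bp), with folds of 3.64, 4.59 and 5.40. At CRY2 only replicate 2 was above the wide-stretch median, and at ELIP1 only replicate 3.

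Of 33 clock and flowering genes 1 was overlapped, RVE8, a MYB-like activator of evening genes, at rank 126 (1627 bp). That stretch had folds of 3.47, 4.08 and 4.31, and it also met the tRNA gene AT3G09595 and 64.4% of the coding gene AT3G09590. The replicate 1 summit fell in AT3G09590, that of replicate 2 outside the stretch and that of replicate 3 outside both coding genes. Of 48 photosynthesis genes 3 were overlapped. Besides RBCS1A these were PSBR, a subunit of photosystem II covered over 89.1% of its length (rank 161), and PETE1, a plastocyanin that carries electrons to photosystem I (rank 120). The PSBR folds were 3.44, 3.63 and 6.30 and those of PETE1 were 3.51, 4.02 and 3.66. In replicates 1 and 2 all 3 listed genes were below the wide-stretch median fold, while RBCS1A and PSBR were above it in replicate 3. PSB27 (rank 36) and CYP38 (rank 130), which are not on the list, were overlapped as well. Rank 36 had folds of 4.26, 5.86 and 4.86, above that median in replicates 2 and 3. None of the 26 tetrapyrrole and chlorophyll synthesis genes was overlapped or within 1000 bp.

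Of 26 brassinosteroid genes 3 were overlapped or within 1000 bp (11.5%), the highest share of the 14 lists: BZR1, ROT3, a cytochrome P450 of hormone synthesis, and BRI1, the receptor kinase, which lay 735 bp from rank 177. The stretch beside BRI1 was 1542 bp wide, with folds of 6.68, 5.06 and 5.15. Its replicate 2 peak spread over 6274 bp, the widest peak of that replicate. The same peak also held rank 59 at NST-K1, so ranks 59 and 177 are not independent in replicate 2. ROT3 (rank 178) had folds of 3.93, 3.84 and 4.17. Of 50 listed auxin genes 1 was overlapped, ARF2, an auxin response factor (rank 220), with folds of 3.10, 5.11 and 4.11. ARF18 (rank 55) and IAA11 (rank 214), which are not on the list, were overlapped as well, and ARF21 lay within 1000 bp of a stretch. Of 19 ethylene genes 1 was overlapped, ACS6, an enzyme that makes the ethylene precursor (rank 262), with folds of 4.70, 5.60 and 3.63. The 25 gibberellin genes and the 27 abscisic acid genes had 0 each.

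Of 30 stress and defence genes 3 were overlapped. ERD10, a dehydrin that protects cells on drying, shared only 40 bp (2.35% of the gene) with rank 29 (2027 bp). That stretch shared 653 bp with AT1G20460, where the summits of replicates 2 and 3 fell. Its folds were 4.16, 6.37 and 4.71. TIFY10B, the jasmonate repressor also called JAZ2, was at rank 128 (1625 bp), with folds of 4.88, 4.97 and 6.39. WRKY40, a transcription factor of defence, was at rank 201 (1505 bp), with folds of 5.03, 4.52 and 5.73. TIFY10B was above the wide-stretch median fold in each replicate.

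TT4, which encodes chalcone synthase, the entry enzyme of flavonoid synthesis, was the only 1 of 27 flavonoid and phenylpropanoid genes counted. It lay at rank 103 (1682 bp) with AT5G13920. The peaks at this stretch had folds of 12.4, 4.1 and 6.08, so replicate 1 stood far above replicate 2. Only the replicate 1 summit fell in TT4, and those of replicates 2 and 3 fell in AT5G13920. The summits of replicates 2 and 3 were 15 bp apart there and that of replicate 1 lay 1085 bp or more away, and 3 series regions met the stretch. The highest of these had a height of 254 ± 182 (SD over the 3 samples), so the samples of the series list differed as well. Of 27 cell wall genes CEV1, the cellulose synthase subunit CESA3, was overlapped (rank 245), with folds of 3.64, 5.17 and 5.02.

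The contrast lists were not free of wide stretches. Of 15 abundantly transcribed housekeeping genes 1 was overlapped, ACT2, an actin gene of vegetative tissue (rank 122), with folds of 3.01, 3.5 and 5.69. This count covers the listed genes only and not every gene of that kind. EIF4A1 (rank 202) and RAN-1 (rank 37), which are not on the list, were overlapped as well. Of 24 floral organ and seed storage genes 2 were within 1000 bp and none was overlapped. PI, a floral organ identity gene, lay 691 bp from rank 136, and CRU2, a seed storage protein gene, lay 896 bp from rank 13, the stretch at FLA9. The shares were 6.67% of housekeeping genes and 8.33% of floral and seed genes. Over the other 12 lists they ran from 0% (tetrapyrrole, gibberellin and abscisic acid) through 3.03% (clock), 6.25% (photosynthesis), 9.43% (phytochrome and far-red) and 10% (stress and defence) to 11.5% (brassinosteroid), with 1.96% of all coding genes.

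Of 21 genes counted here as ERF 3 were overlapped (ERF2, ERF5 and ERF8). Of 13 JAZ genes 2 were (JAZ6 and TIFY10B), and of 4 AFP genes 2 with 1 more within 1000 bp (AFP1, AFP2 and TMAC2 in all). JAZ6 shared only 10 bp (0.385% of the gene) with rank 287. The sets may leave out family members that carry other names. ERF proteins are ethylene response factors, JAZ proteins hold back jasmonate responses, and AFP proteins bind the abscisic acid factor ABI5. Of 28 tau glutathione transferases 4 were overlapped (ERD9, GSTU18, GSTU4 and GSTU5). ERD9 and GSTU18 shared rank 5, and GSTU4 and GSTU5 shared rank 274 with AT2G29452. In the NAC, WRKY and MYB sets the counts were 4 of 81, 2 of 67 and 1 of 115 genes. These families were picked after the genes in the stretches were seen, so their shares stand as descriptions beside the 1.47% of all coding genes.

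Noncoding genes also fell in wide stretches. A lncRNA gene was overlapped by 43 of 300 (14.3%, interval 10.8 to 18.8), against 375 of 6387 other stretches (5.87%, interval 5.32 to 6.47), with 6.25% over all. Per kb the values were close, at 0.0998 lncRNA genes in wide stretches and 0.0952 in other stretches. A tRNA gene was overlapped by 9 wide stretches (3%, interval 1.59 to 5.60), against 127 other stretches (1.99%, interval 1.67 to 2.36), with 2.03% over all. Those 9 held 10 tRNA genes, each entire. Per kb, tRNA genes stood at 0.0200 in wide stretches and 0.0295 in other stretches. Besides U4.2 and U4.3p (26 bp shared), the spliceosomal U2.5 gene lay in a wide stretch (rank 257). Spliceosomal RNA genes were thus met by 3 of 300 wide stretches (1%), with 0.269% over all. A small nucleolar RNA gene was met by 1 wide stretch (0.333%), with 0.464% over all. No miRNA gene was overlapped, and the share over all stretches was only 0.194%. These counts are too small to set the wide stretches apart.

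Every wide stretch lay within a single peak of each replicate, so its edges were the innermost edges of 3 peaks. The peaks themselves had a median width of 2010, 1878 and 2028 bp in replicates 1, 2 and 3, against 996, 971 and 1090 bp at other stretches. A wide stretch filled a median of 64.4% of the joint outline of its peaks, against 47.8% for other stretches. Wider peaks and a larger filled share follow at least in part from choosing stretches by their shared width. Replicate 2 set the left edge of 41% of wide stretches and the right edge of 42.3%, against 41.1% and 43.3% of other stretches, so its part in the edges was the same at both. Some peaks ran far beyond the shared part. In the rank 5 stretch, the replicate 3 peak of 6777 bp was the widest of its list.

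Fold differed little with width. The median fold enrichment in replicates 1, 2 and 3 was 4.31, 4.67 and 4.76 at wide stretches, against 4.14, 4.58 and 4.74 at other stretches. Tags per peak were higher, at medians of 1029, 1335 and 1411 in wide stretches, against 467, 636 and 675 in other stretches. Per kb of peak the medians were 498, 689 and 667 tags at wide stretches, against 434, 626 and 596 at other stretches. Across the 300 stretches, Spearman's rho between stretch width and fold was 0.0987, 0.0645 and 0.132 in replicates 1, 2 and 3, a description over stretches that share the same 3 libraries. Between replicates, the folds of the same stretch correlated with a rho of 0.137 to 0.171 over the 300. The order by fold within the 300 was thus only loosely shared between replicates.

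The deposited false discovery rate was higher at wide stretches. It exceeded 1% for 20%, 56% and 34.7% of the peaks in replicates 1, 2 and 3, against 4.68%, 33.8% and 19.3% at other stretches. Its medians were 0.63%, 1.06% and 0.735% at wide stretches and 0.59%, 0.82% and 0.61% at other stretches. The rate was thus higher at wide stretches in each replicate. The deposited score was higher there too, which is the other way for peak support. Its medians in replicates 1, 2 and 3 were 286, 723 and 477 at wide stretches, against 142, 388 and 280 at other stretches.

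A replicate not used in the choice gave a separate view of width. When the 300 widest stretches were chosen from replicates 2 and 3 alone, replicate 1 had a peak at 242 of them (80.7%), with a median width of 1823 bp, against 41.1% and 1017 bp at the other stretches of those 2 replicates. Chosen without replicate 2, 93% had a replicate 2 peak with a median width of 1702 bp, against 84.0% and 1010 bp. Chosen without replicate 3, 88.7% had a replicate 3 peak with a median of 1957 bp, against 82.6% and 1107 bp. Where several of its peaks met a stretch, the widest was taken. In each case the left-out replicate had wider peaks at the chosen stretches, although a longer stretch also meets more peaks, and wide peaks more easily. Which stretches ranked among the 300 still moved: the choices without replicate 1, 2 or 3 overlapped 46%, 54% and 65.3% of the 300 described here.

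**Figure D4:**
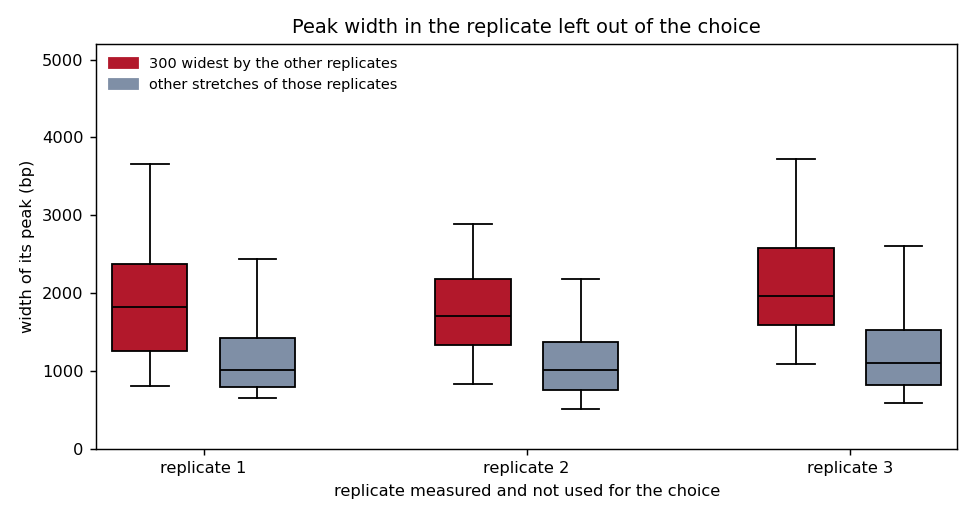
Width in bp of the left-out replicate's peaks at the 300 stretches that the other 2 replicates made widest (red) beside those at their other stretches (grey), with boxes for quartiles, lines for medians and whiskers for the 5th and 95th percentiles. Where several peaks met a stretch, the widest is shown. The medians are 1823 against 1017, 1702 against 1010, and 1957 against 1107 bp for replicates 1, 2 and 3 left out.

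Summits, the positions of highest signal within each peak, were spread in many wide stretches. The 3 summits spanned a median of 456.5 bp in wide stretches and 139 bp in other stretches, which is 28.5% and 19.4% of the stretch width (medians). They fell within 100 bp in 64 of 300 wide stretches (21.3%), against 39.1% of other stretches. They lay more than 1000 bp apart in 61 wide stretches (20.3%), against 12.2% of other stretches. All 3 summits were inside the shared stretch in 261 wide stretches (87%), against 73.4% of other stretches. At FHL, PHYB and PIL6 the 3 replicates had their summits within 36 bp, while at TT4 replicate 1 stood apart from the other two.

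The authors' series list met 205 of 300 wide stretches (68.3%, interval 62.9 to 73.3), against 2809 of 6387 other stretches (44.0%, interval 42.8 to 45.2), with 45.1% over all. Its regions are narrower than the stretches, and when 50% of the stretch had to be covered the share was 14.7%. Chosen without replicate 1, 48% of the 300 widest met the list. At least 2 series regions met 83 wide stretches (27.7%, interval 22.9 to 33.0), against 290 other stretches (4.54%, interval 4.06 to 5.08). Per kb there were 0.623 series regions in wide stretches and 0.712 in other stretches. The median of the highest height per stretch was 179 in wide stretches and 173 in other stretches. Wide stretches thus held more regions each and regions of nearly the same height, while values per kb tend to fall with width by construction. The highest stood at SQE3 (413 ± 58.0, SD over the 3 samples, rank 107), a squalene epoxidase of sterol synthesis. Next came CHY1 (353 ± 85.8, SD over the 3 samples, rank 98), an enzyme of peroxisomal valine breakdown, CSY2 (346 ± 35.3, rank 232), a peroxisomal citrate synthase, BPS2 with LCBK2 (336 ± 54.7, rank 124) and AT1G05700 (325 ± 88.8, rank 194).

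Over classes of width from narrowest to widest, several of these shares moved with width rather than at the limit of the 300. The share on the series list was 33.5%, 46.9%, 44.2%, 54.2%, 65.3% and 68.3%. The share with 2 or more coding genes was 7.53%, 19.9%, 28.2%, 34%, 37.7% and 43.7%. The share with the midpoint outside coding genes was 56.5%, 61.0%, 62.9%, 65.8%, 70.7% and 74%. The class just below the 300, ranks 301 to 600, was thus close to them in each share. Median fold had no such order, at 4.09 to 4.31 in replicate 1, 4.32 to 4.88 in replicate 2 and 4.58 to 4.82 in replicate 3.

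**Figure D5:**
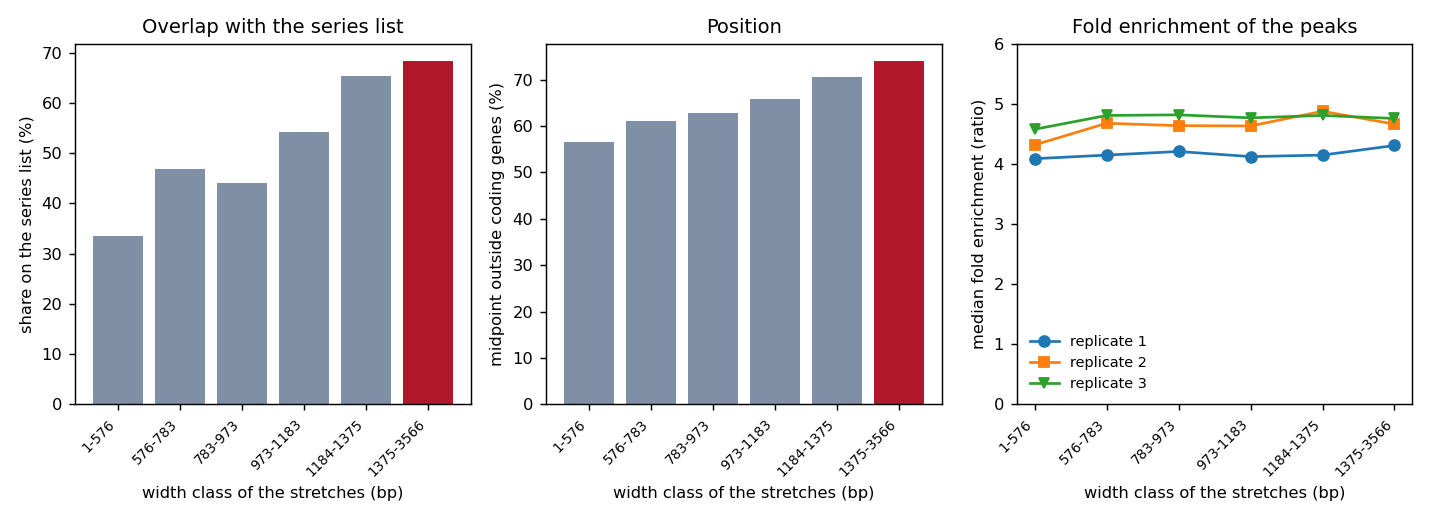
Share in percent of stretches on the series list (left), share with the midpoint outside coding genes (middle) and median fold enrichment of each replicate's peaks (right) over 6 classes of stretch width in bp, with the 300 widest in red. Both shares are highest in the widest class (68.3% and 74%), while the median folds stay between 4.09 and 4.88.

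The 5 wide stretches whose lowest fold percentile over the 3 replicates was highest combined width with enrichment. AT1G09390 (rank 94, 1702 bp) led, with folds of 6.10, 6.72 and 7.07 in replicates 1, 2 and 3, none below percentile 93.9 of its replicate's list. Its summits fell within 10 bp of each other. AT1G05700 (rank 194, 1522 bp) had folds of 6.39, 7.44 and 6.21. Rank 50 (1912 bp) reached into MEE31, a gene for a phosphomannose isomerase, and STE1, a sterol desaturase gene, and had folds of 6.86, 7.21 and 6.12. Rank 39 (1969 bp) covered parts of AT2G45300 and GAE4, an epimerase of pectin sugar synthesis, and filled 95.3% of the joint outline of its peaks, with folds of 5.87, 6.64 and 7.37. MIOX2, an inositol oxygenase gene, at rank 62 (1852 bp), had folds of 5.85, 6.55 and 6.67. It met no series region, and its replicate 1 and 3 summits lay 22 bp apart, with that of replicate 2 at least 1164 bp away. The deposited false discovery rate was 4.17% for replicate 1 at rank 39 and 4.9% for replicate 2 at MIOX2. In these 5 stretches the rates otherwise ran from 0.74% to 2.46%.

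Some wide stretches were neighbours. Within 5000 bp of each other lay 10 pairs, and 4 of these were within 1000 bp. At TCP9, ranks 19 and 34 were 206 bp apart and shared the single replicate 1 peak of 4435 bp with 3343 tags, so they are not independent in that replicate. Ranks 38 and 76 at SAMDC, a gene of polyamine synthesis, were 37 bp apart and shared a replicate 1 peak of 3809 bp and a replicate 3 peak of 4574 bp. Ranks 3 and 72 were 745 bp apart, and rank 72 lay between AT2G30020 and MAPKKK14. Ranks 100 and 211 met at AT5G47190, 767 bp apart.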

How the data were processed

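Per the submitters' processing notes, Bowtie was the aligner and TAIR10 the genome. The sources used here do not name the aligner's settings, the peak caller or the background library. For each replicate the authors deposited a peak list with start, end, a summit offset, a tag count, a score, a fold enrichment (a ratio) and a false discovery rate in percent, and columns were named from their values. The authors' series list gives regions with a peak height (signal) in each of 3 samples. Replicates were labelled as separate samples of 1 group.

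Stretches covered by peaks of all 3 replicates were intersected base by base and ranked by width (ties by chromosome and start), and the 300 widest were kept. Genes, matched by coordinates to the RefSeq TAIR10.1 table, counted when at least 1 bp was shared, or within 1000 bp where stated. TAIR10 coordinates were checked against that table by shifting stretches 2000 bp to each side: the share of midpoints in coding genes was 38.4% unshifted, 66.3% and 67.2% shifted. The members and the gene lists were chosen with earlier results of these data known. List symbols matched a gene in 467 of 480 cases. Genes were named by rule: those of the 20 widest stretches, of the 10 with most coding genes, 5 members each side of the width limit, every list gene in or beside a stretch, and the 5 with the highest lowest-replicate fold percentile. Others, such as the gene families, neighbouring pairs, rank 274 and highest heights, were chosen after their values were seen. Shares have Wilson 95% intervals (counting error only). Alternatives were other numbers of stretches, joined stretches, a false discovery rate of at most 1%, each replicate left out, stricter overlaps and other flanks. Intersection code was tested on simulated intervals. Python 3.11.15, pandas 2.3.3, numpy 2.4.6 and scipy 1.17.1 were used. Motifs in promoter windows were not analysed here, since they need a genome sequence.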

Additional observations from a re-analysis of the deposited data

How the results depend on the processing

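The median width of 1583 bp moved with the choice of stretches. A stretch needs all 3 replicates, so its width has no SD between replicates. For scale, the median width of the peaks at these stretches had an SD of 82.1 bp over replicates. It was 1910 bp for the 100 widest, 1375 bp for the 600 widest, 1748.5 bp with stretches at most 100 bp apart joined and 1225 bp with peaks at a false discovery rate of at most 1% only. Leaving out each replicate in turn gave 1805.5 to 1965.5 bp, as fewer peaks then bound a stretch. The mean of 1.36 coding genes per stretch was 1.3 to 1.48 with a replicate left out and 0.227 when 50% of the gene had to lie in the stretch. The same rule put the share with 2 or more coding genes at 2.67%. This share stayed within its interval under the other 7 settings. The share of midpoints outside coding genes was 58.7% to 75.3% with a replicate left out, lowest without replicate 2, and 65.7% without replicate 3; the cause was not tested. The share on the series list was 76.7% with joining, 56% at a false discovery rate of at most 1%, 14.7% with 50% of the stretch covered, and 48% to 64.3% with a replicate left out, lowest without replicate 1. The number of list genes was 7 for the 100 widest and 45 for the 600 widest, since fewer or more stretches were counted, and 16 to 26 otherwise. No paired analysis was possible because the labels give numbers to 1 group only and the input was not analysed here. The planned promoter motif shares were not run.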

Other observations

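The peak summits of the replicates were set beside the summit positions of the series list, sample by sample. The median distance was 8 bp between replicate 1 and Sample1, 8 bp between replicate 2 and Sample2, and 9 bp between replicate 3 and Sample3. For the other pairings it was 64 to 82 bp. These distances were not used to assign the heights of the series list to replicates.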
